A study of Rattus norvegicus with 9 samples.

Results

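Metalloproteases are zinc-dependent enzymes that cut proteins outside the cell or at its surface. The matrix metalloproteases (MMPs) cut collagens, laminins and other matrix proteins, and the tissue inhibitors of metalloproteases (TIMPs) bind and block them. The ADAM proteins (a disintegrin and metalloprotease) sit in the membrane and release the outer part of other membrane proteins, and the secreted ADAMTS enzymes (ADAM with thrombospondin repeats) cut proteoglycans and procollagens. In the oligodendrocyte lineage such enzymes are known for clearing matrix around growing processes and for trimming surface proteins, and ADAMTS4 is known in mouse as a product of mature oligodendrocytes.

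The genes described here were chosen by symbol alone, as every rat gene of the deposited tables named Mmp, Timp, Adam, Adamts or Adamtsl with a number. This gave 70 of 32623 gene IDs, namely 21 Mmp, 4 Timp, 22 Adam, 19 Adamts and 4 Adamtsl genes, each with 1 row. Bulk RNA was sequenced from 9 libraries of wild-type rat oligodendrocyte precursor cells (OPCs) from brain, kept in primary culture in differentiation medium and collected on day 5. Bavisant blocks the histamine H3 receptor and was given at 10 µM in 3 libraries and at 1 µM in another 3, and 3 basal libraries had no drug. The titles number the libraries of each group P11, P13 and P14 without explaining the letter. Whether a number marks a culture or an animal of its own is not stated, so p-values rest on the spread between these libraries, which may be technical. Where a fit includes the P number, they rest only on the spread left after differences between P numbers are taken out.

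The libraries held 23.9 to 43.1 M estimated reads. Of the 70 members, 45 had enough reads to be tested, among 15321 genes tested in all. The other 25 had at most 12 reads and 0.481 TPM in any library, where TPM (transcripts per 1000000) is a level scaled by gene length. No read of 8 of these was found in any library. A total of 0 is compatible with up to 3 reads over the 9 libraries (0.00935 CPM, counts per 1000000 reads), as far as counting error goes. The cultures expressed their label's markers. The summed level of 14 OPC markers was 1523 to 2015 TPM per library, and that of 17 mature oligodendrocyte markers was 35365 to 54174 TPM.

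Of the 25 members below the read filter, 10 are Mmp genes that lie on rat chromosome 8 in the order Mmp13, Mmp12, Mmp1b, Mmp3, Mmp1, Mmp10, Mmp8, Mmp27, Mmp20 and Mmp7. Among them are genes for collagenases, stromelysins, matrilysin, the macrophage elastase MMP12 and the enamel protease MMP20. Collagenases and stromelysins are known to be induced in inflammation through AP-1, the Fos and Jun transcription factor pair. In 7 of them a match to the AP-1 motif TGANTCA lies 61 to 96 bases before the transcript start. Each line gives the 41 bases around that match, 5′ to 3′ on the plus strand of GRCr8 chromosome 8, from RefSeq, with the match in capitals. They are shown as sequences of members that these cultures hardly expressed. Mmp1b, Mmp8 and Mmp27 held no match, and any part of the motif in these low levels was not tested.
Mmp13: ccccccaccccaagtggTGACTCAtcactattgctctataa
Mmp12: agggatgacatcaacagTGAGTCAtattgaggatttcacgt
Mmp3: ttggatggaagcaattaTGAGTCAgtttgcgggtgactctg
Mmp1: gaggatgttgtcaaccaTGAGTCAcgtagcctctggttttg
Mmp10: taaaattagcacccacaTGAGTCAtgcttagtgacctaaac
Mmp20: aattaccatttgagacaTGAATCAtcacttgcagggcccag
Mmp7: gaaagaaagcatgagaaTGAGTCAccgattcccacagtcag

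In the same order these windows lie at chr8:12782746-12782786, chr8:12866548-12866588, chr8:12925193-12925233, chr8:12943352-12943392, chr8:12974629-12974669, chr8:13074166-13074206 and chr8:13132946-13132986. Mmp13 reached at most 0.254 TPM, Mmp12 0.131 TPM, Mmp3 0.092 TPM and Mmp7 0.481 TPM in any library. Mmp1 and Mmp1b are close copies, so their reads could be split between them, and they held 1 read and 0 reads over all libraries. The other untested members were Mmp21, Adam2, Adam5, Adam7, Adam18, Adam21, Adam24, Adam28, Adam30, Adam32, Adam33, Adam34, Adamts13, Adamts16 and Adamts18.

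RefSeq promoters (300 bases, of which 250 lie before the start) were matched for 49 of the 70 members, 32 tested and 17 not. Those not matched were Adam2, Adam5, Adam7, Adam9, Adam11, Adam18, Adam23, Adam28, Adam32, Adam33, Adamts5, Adamts8, Adamts15, Adamts16, Adamts19, Mmp2, Mmp9, Mmp14, Mmp16, Mmp17 and Mmp19. AP-1 matches were found in 1 of the 32 tested members and 8 of the 17 untested ones, against 7.33% of 27457 rat promoters. The GC box GGGCGG, which binds Sp1-type factors, showed the opposite split. It was present in 24 of the 32 tested members and in 0 of the 17 untested ones, against 34.9% of all promoters. The TATA box letters TATAAA were present in 4 tested and 12 untested members, against 14.3% of all promoters. Both strands were searched, AP-1 reads the same on both, and a promoter counted once for each motif however many matches it held. The GC and TATA letters were chosen after the AP-1 result was seen, and a match is a description of the sequence, not a binding site. The 17 untested members include the neighbouring chromosome 8 Mmp genes above, which hold most of the 8 AP-1 matches. Shares over all tested and all untested genes were not counted, so whether these splits are particular to the members was not tested.

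**Figure D1:**
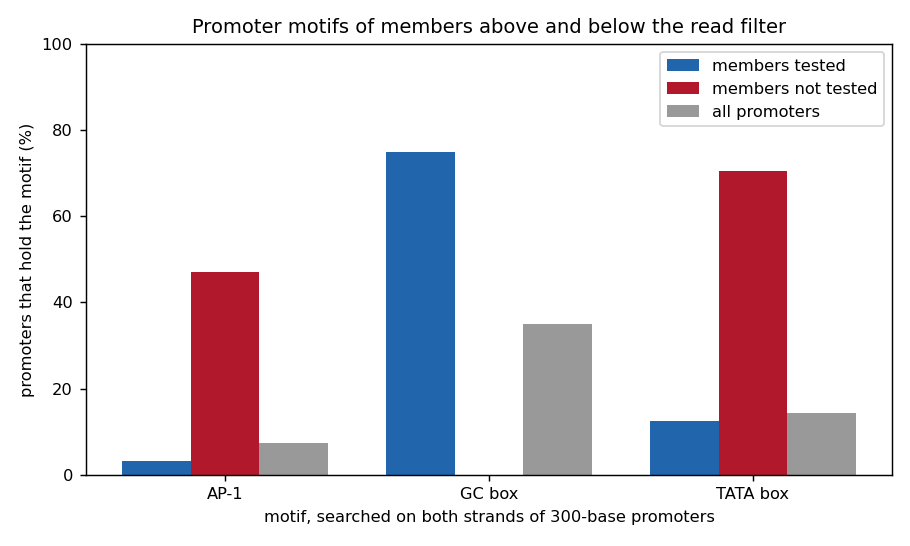
Share of 300-base RefSeq promoters that hold each motif (y axis, %), for the 32 tested members (blue), the 17 members below the read filter (red) and all 27457 promoters (grey). GC boxes were found in 24 of 32 tested and 0 of 17 untested members, and AP-1 and TATA letters mostly in untested ones. Shares over all tested and all untested genes were not counted.

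Of the members that passed a dose test, 6 had a matched promoter, of which 0 held an AP-1 match, 4 a GC box and 1 a TATA box. Bases before the start are shown for 2 of them, the most abundant protease and the most abundant inhibitor. The first stretch is chr13:86202761-86203010 on the plus strand and the second chr10:104089215-104089464 on the minus strand, both 250 bases long and 5′ to 3′ along the gene. Capitals mark the GC box of Timp2, read on its other strand, which begins at position −54 from the start. Adamts4 held none of the 3 motifs.
Adamts4: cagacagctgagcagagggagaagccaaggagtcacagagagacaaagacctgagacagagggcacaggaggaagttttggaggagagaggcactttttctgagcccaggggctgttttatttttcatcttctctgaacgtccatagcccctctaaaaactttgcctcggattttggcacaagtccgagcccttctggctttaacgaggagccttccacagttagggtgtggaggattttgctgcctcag
Timp2: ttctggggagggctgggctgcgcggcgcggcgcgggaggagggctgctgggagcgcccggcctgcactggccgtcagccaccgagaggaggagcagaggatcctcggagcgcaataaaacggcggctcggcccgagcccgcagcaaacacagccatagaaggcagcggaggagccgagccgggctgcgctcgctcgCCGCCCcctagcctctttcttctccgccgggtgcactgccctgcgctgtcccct

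The most abundant member was Adamts4 (ENSRNOG00000003538), an aggrecanase that cuts the brain proteoglycans brevican and versican, at a mean of 281 TPM over 9 libraries (248 to 334 TPM). Timp2, which blocks MMPs and also helps to activate MMP2, averaged 154 TPM (123 to 177 TPM), and Adam11, a catalytically dead ADAM that binds LGI proteins, 149 TPM (92.4 to 233 TPM). The ranges of Timp2 and Adam11 overlapped, while the lowest Adamts4 library was above every Timp2 and Adam11 library. Next came the membrane-anchored Mmp15 at 85.1 TPM, Adam10 at 72.1 TPM and Adam9 at 71.3 TPM, whose ranges overlapped. Adam10 cuts Notch and the amyloid precursor protein, and Adam9 is a sheddase of many surface proteins. Timp3 averaged 64.5 TPM, Mmp16 48.7 TPM, Adam15 43.7 TPM and Adam17, which releases TNF, 38.5 TPM. The gelatinases, which cut type IV and denatured collagen, were lower, with Mmp2 at 20.0 TPM and Mmp9 at 5.27 TPM.

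**Figure D2:**
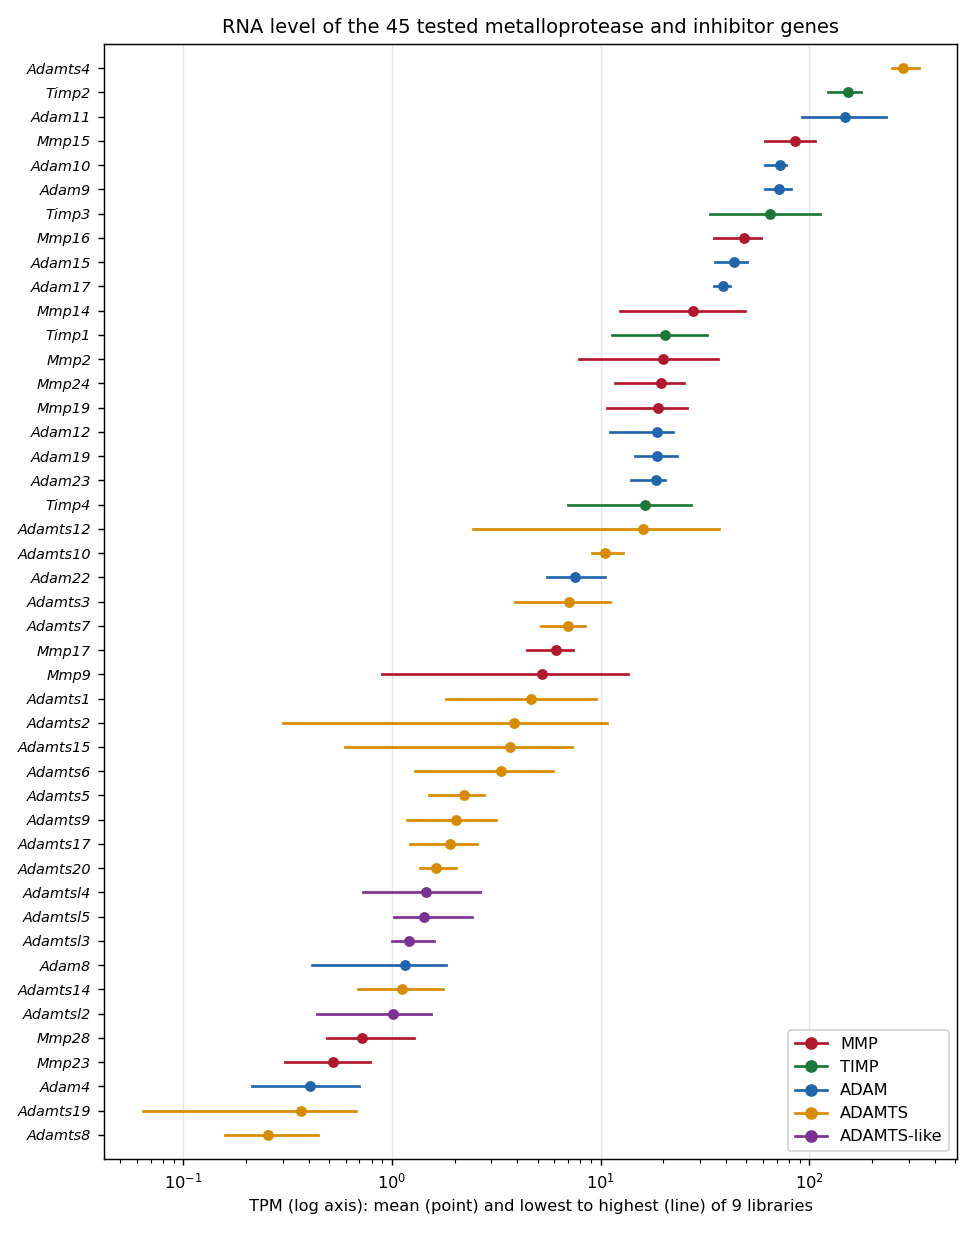
RNA level of the 45 tested members in TPM on a log axis, as the mean (point) and the lowest to highest value (line) of 9 libraries, coloured by family. Adamts4 leads at a mean of 281 TPM, and members such as Adamts2, Adamts12 and Adamts15 have wide ranges.

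Setting 10 µM bavisant against basal cultures asks what the drug does to these genes while OPCs differentiate. With the P number in the fit as a replicate block, 9 of 45 members passed the test (adjusted p under 0.05 over all genes, edgeR quasi-likelihood), against 3.96% of all genes tested. Of these, 8 fell, against 2.64% of all genes, and 1 rose, against 1.32%. The genes that fell were Mmp2, Mmp14, Timp2, Mmp9, Mmp19, Adamts3, Adamts12 and Adamts15, and the one that rose was Adamts4. Log2 fold changes below come from this fit, ± SE, with n = 3 libraries per group. Over the 45 members the median log2 fold change was −0.23, against −0.01 over all genes. Negative values were found for 34 of 45 members, against 52.8% of all genes. In all 3 P numbers, 22 of 45 members were lower, against 24.3% of all genes.

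Without the P number in the fit, 0 of 45 members and 0% of all genes passed (lowest adjusted p among members 0.733, edgeR quasi-likelihood), with 5 members and 808 genes at an unadjusted p under 0.05. There DESeq2 called 1 member (Timp2, adjusted p = 0.00361) among 64 genes in all, and limma on TPM 0. With the block but only the 2 groups compared in the fit, 0 members and 0 genes in all passed. Leaving out 1 library in the blocked fit changed the calls of members and of all genes, which were 9 and 607 with all libraries. Without basal P11 they were 0 and 0, without basal P13 0 and 1, and without basal P14 3 and 57. Without 1 µM P11 they were 5 and 260, without 1 µM P13 7 and 581, and without 1 µM P14 5 and 261. Without 10 µM P11 they were 8 and 529, without 10 µM P13 3 and 158, and without 10 µM P14 2 and 64. Leaving out all P11 libraries gave 0 members and 10 genes. No call changed direction in any of these runs. Under scaling by library totals 12 members passed, 11 of them lower, among 834 genes in all. Of the calls over all genes 84.3% were lower, where 66.7% were lower under the TMM scaling used here.

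The 3 genes of the MMP2 activation complex each passed as lower in the blocked fit, and whether they moved jointly was not tested. MMP14 sits in the membrane, binds TIMP2, and through it holds pro-MMP2 for cleavage. Mmp2 (ENSRNOG00000016695) had 22.6, 12.3 and 7.85 TPM at 10 µM in P11, P13 and P14, against 36.3, 20.2 and 12.7 TPM in basal libraries. The groups overlapped because P11 was high in both, but each 10 µM library was below the basal library of its P number, with differences in log2 CPM of −0.65, −0.61 and −0.65. Mmp2 was 1.55-fold lower (−0.64 ± 0.05, adjusted p = 0.0101), the smallest adjusted p of any member.

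Mmp14 (ENSRNOG00000010947) had 35.3, 14.7 and 12.3 TPM at 10 µM, against 46.0, 26 and 17 TPM in basal libraries. It was also highest in P11 and lower in each P number, and the groups overlapped. The change was 1.39-fold down (−0.48 ± 0.09, adjusted p = 0.0317).

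Timp2 (ENSRNOG00000003148) had 123, 131 and 138 TPM at 10 µM, against 159, 177 and 165 TPM in basal libraries. Its groups did not overlap, and its P numbers differed little (adjusted p = 0.207 for the P number). It was 1.21-fold lower (−0.28 ± 0.04, adjusted p = 0.0201). Timp2 RNA was 5.46, 10.7 and 17.5 times Mmp2 RNA per length at 10 µM, against 4.37, 8.78 and 13 times in basal libraries. This ratio was higher at 10 µM in each P number, and the difference between its members was not tested.

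Mmp9 (ENSRNOG00000017539), the gelatinase that in mouse is known for clearing the proteoglycan NG2 during remyelination, showed the largest fall in fold of any tested member. It had 4.46, 1.56 and 0.896 TPM at 10 µM, against 13.6, 4.15 and 5.46 TPM in basal libraries. The 10 µM P11 library lay above the basal P13 library, so the groups overlapped by that pair. It was 3.36-fold lower (−1.75 ± 0.24, adjusted p = 0.0164), with 61 to 591 reads in each library of these groups.

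Mmp19 (ENSRNOG00000006778), a secreted MMP that cuts basement membrane proteins, had 15.2, 13.6 and 10.8 TPM at 10 µM, against 23.4, 25.9 and 16.1 TPM in basal libraries. The groups did not overlap. It was 1.57-fold lower (−0.65 ± 0.08, adjusted p = 0.0120). Mmp2 and Mmp19 kept their call in 7 of the 9 runs that leave out 1 library and Mmp9 in 6, the most among members called in this comparison. Timp2 kept its call in 4, Mmp14 in 3, Adamts12 in 2 and Adamts15 in 1.

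Of the membrane-type MMPs, only Mmp14 passed among the 5 tested. Mmp15 had 61.2, 91.2 and 107 TPM at 10 µM, against 71.9, 79.1 and 104 TPM in basal libraries (0.11 ± 0.09, adjusted p = 0.490). Mmp16 stood at −0.05 ± 0.06 and the glycolipid-anchored Mmp17 at 0.14 ± 0.08. Mmp24, which is known from the nervous system, stood at −0.23 ± 0.06 (adjusted p = 0.0890) and was lower in each P number. Whether these differ from Mmp14 was not tested. The low Mmp28 and Mmp23 averaged 0.723 and 0.524 TPM and did not pass either.

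The summed level of all Mmp genes was 191, 205 and 227 TPM at 10 µM, against 250.01, 241 and 245 TPM in basal libraries, and the groups did not overlap. At 1 µM it was 242, 251 and 243 TPM, within 10 TPM of basal in each P number. The summed Timp level was 243, 205 and 205 TPM at 10 µM, against 295, 282 and 247 TPM in basal libraries, again without overlap. These sums are dominated by Mmp15, Mmp16 and Timp2 and carry no test.

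Of the 4 TIMPs, Timp2 alone passed at 10 µM against basal. Timp1, a secreted inhibitor that astrocytes make in mouse, had 17.8, 18.6 and 11.3 TPM at 10 µM, against 22.2, 28.5 and 13.1 TPM in basal libraries (−0.32 ± 0.10, adjusted p = 0.123). Timp3, the matrix-bound inhibitor that also blocks ADAM17 and ADAMTS4, had 94.4, 39.3 and 33.5 TPM at 10 µM, against 101, 60.2 and 42.0 TPM in basal libraries (−0.27 ± 0.09, adjusted p = 0.138). Both were lower in each P number and their groups overlapped. Timp4 stood at −0.30 ± 0.14 (adjusted p = 0.255).

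In RefSeq's GRCr8 annotation Timp1, Timp3 and Timp4 each overlap a synapsin gene (Syn1, Syn3 and Syn2), and Timp2 overlaps Cep295nl. The strand setting of the counting is not given in the sources used here, so reads of such neighbours cannot be told apart. Syn1 averaged 35.9 TPM and stood at −0.00 ± 0.05, and Cep295nl averaged 0.110 TPM. Syn3 averaged 8.35 TPM and stood at −0.38 ± 0.15 (adjusted p = 0.182, edgeR quasi-likelihood with the block), lower like Timp3. Syn2 averaged 3.82 TPM and stood at −0.11 ± 0.11 (adjusted p = 0.558, same test). Any part of these neighbours in the Timp values was not tested.

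Adamts4 had 294, 291 and 334 TPM at 10 µM, against 259, 259 and 299 TPM in basal libraries. It was higher at 10 µM in each P number, while the 10 µM P11 and P13 libraries lay below the basal P14 library. The rise was 1.18-fold (0.24 ± 0.04, adjusted p = 0.0284). Its change was the smallest in fold of the 9 called members, close to that of Timp2, and it had the most reads of any member, 20870 to 41929 per library. Its call held in 2 of 9 runs that leave out 1 library.

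The other proteoglycan-cutting ADAMTS genes were far lower in level than Adamts4. Adamts15 had 5.58, 1.99 and 0.599 TPM at 10 µM, against 7.30, 3.79 and 1.10 TPM in basal libraries, and fell 1.53-fold (−0.61 ± 0.14, adjusted p = 0.0486). Adamts9 stood at −0.43 ± 0.10 (adjusted p = 0.0595) and Adamts1 at −0.44 ± 0.13 (adjusted p = 0.104), each lower in all 3 P numbers. Adamts5, the main aggrecanase of mouse cartilage, stood at −0.13 ± 0.13 (adjusted p = 0.601). For Adamts15, P11 libraries were high and P14 libraries low at every dose, so its groups overlapped.

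Among the procollagen-processing enzymes, Adamts3 fell, and Adamts2 and Adamts14 did not pass. Adamts3 (ENSRNOG00000027463), which also processes VEGF-C, had 3.90, 5.03 and 9.34 TPM at 10 µM, against 4.96, 7.95 and 11.1 TPM in basal libraries. The groups overlapped, and the change was 1.28-fold down (−0.36 ± 0.08, adjusted p = 0.0476). Adamts2 stood at −0.35 ± 0.21 (adjusted p = 0.365) and Adamts14 at −0.54 ± 0.18 (adjusted p = 0.136). The call of Adamts3 held in 0 of 9 runs that leave out 1 library.

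Adamts12 (ENSRNOG00000018865), known for cutting cartilage oligomeric matrix protein, had 28.9, 6.49 and 2.44 TPM at 10 µM, against 36.9, 13.8 and 3.95 TPM in basal libraries. It was lower in each P number across a wide spread between them, and the groups overlapped. It fell 1.55-fold (−0.63 ± 0.13, adjusted p = 0.0400). Its relative Adamts7 stood at −0.41 ± 0.10 (adjusted p = 0.0595) and passed under DESeq2 with the block (adjusted p = 0.0143). Adamts10, a fibrillin-linked enzyme, stood at −0.06 ± 0.13.

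**Figure D3:**
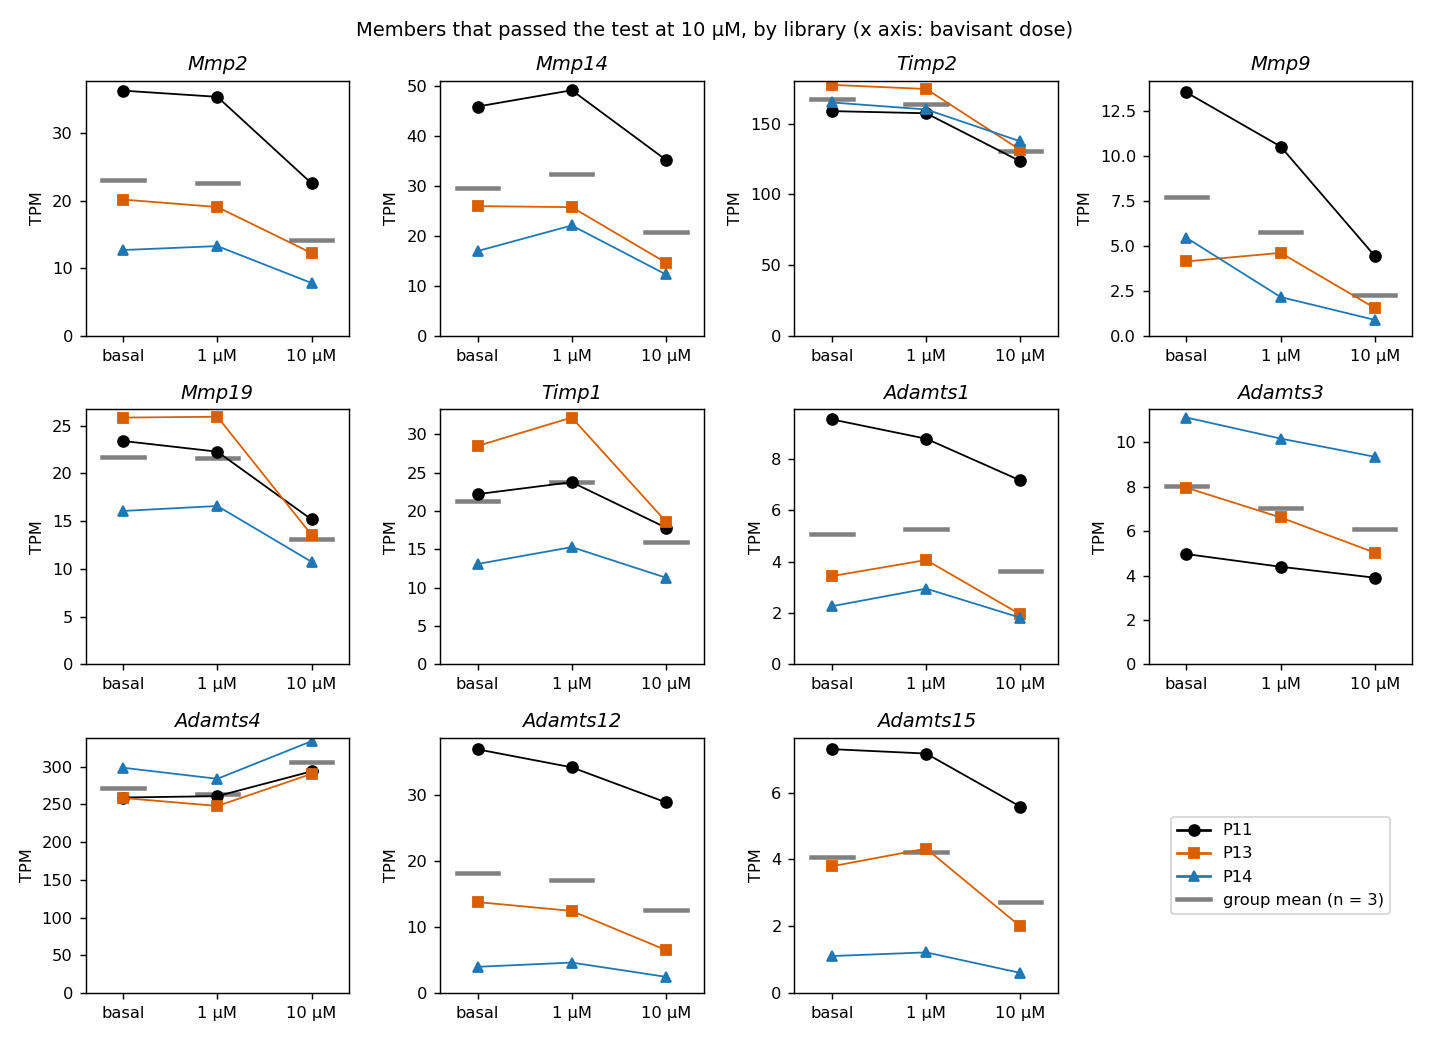
TPM (y axis, from 0) of the 11 members that passed at 10 µM against basal or against 1 µM, by dose (x axis, basal, 1 µM, 10 µM), with 1 line per P number and group means as grey bars. Lines of Mmp2, Mmp14, Adamts12 and Adamts15 lie at different heights, highest in P11, and each is lower at 10 µM than at 1 µM and basal.

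Of the 11 tested Adam genes 0 were called at 10 µM against basal, against 3.96% of all genes (edgeR quasi-likelihood with the block). At that share few or no calls would be expected among 11 genes. These 11 include the catalytically dead Adam11, Adam22 and Adam23. An unadjusted p under 0.05 was found for 3 of them (Adam12, Adam15 and Adam23), against 3436 of all 15321 genes. Adam10 had 67.6, 61.6 and 75.0 TPM at 10 µM, against 70.0, 76.3 and 74.5 TPM in basal libraries (−0.05 ± 0.06, adjusted p = 0.617). Adam17 had 38.6, 34.8 and 41.4 TPM, against 37.3, 38.5 and 38.2 TPM (0.07 ± 0.05, adjusted p = 0.438). Both varied little between libraries, and their groups overlapped. Adam9 stood at −0.05 ± 0.05 and the meltrin Adam19 at −0.11 ± 0.07.

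Adam12, another meltrin, had 17.9, 11.1 and 16.5 TPM at 10 µM, against 21.0, 20.4 and 19.1 TPM in basal libraries. Adam15, a disintegrin of cell contacts, had 40.2, 35.4 and 38.1 TPM, against 45.7, 45.2 and 47.7 TPM. For both the groups did not overlap. Neither passed (−0.36 ± 0.11, adjusted p = 0.111 for Adam12, and −0.21 ± 0.06, adjusted p = 0.0890 for Adam15), though Adam12 passed under DESeq2 with the block (adjusted p = 0.0349). Adam8, a protease of white blood cells, averaged 1.15 TPM and stood at 0.20 ± 0.25. Adam33, another catalytic ADAM, had 7 reads over all libraries.

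The catalytically dead ADAM11, ADAM22 and ADAM23 bind secreted LGI proteins. Adam11 had 92.4, 146 and 233 TPM at 10 µM, against 109, 144 and 227 TPM in basal libraries (0.04 ± 0.10, adjusted p = 0.856). Adam22 stood at −0.22 ± 0.18 and Adam23 at −0.20 ± 0.09 (adjusted p = 0.221). The testis-linked Adam genes were nearly silent, with only Adam4 tested, at 0.405 TPM. Of the ADAMTS-like genes, which lack a protease domain, 0 of 4 were called, against 3.96% of all genes. Adamtsl4 stood at −0.37 ± 0.13 (adjusted p = 0.136).

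**Figure D4:**
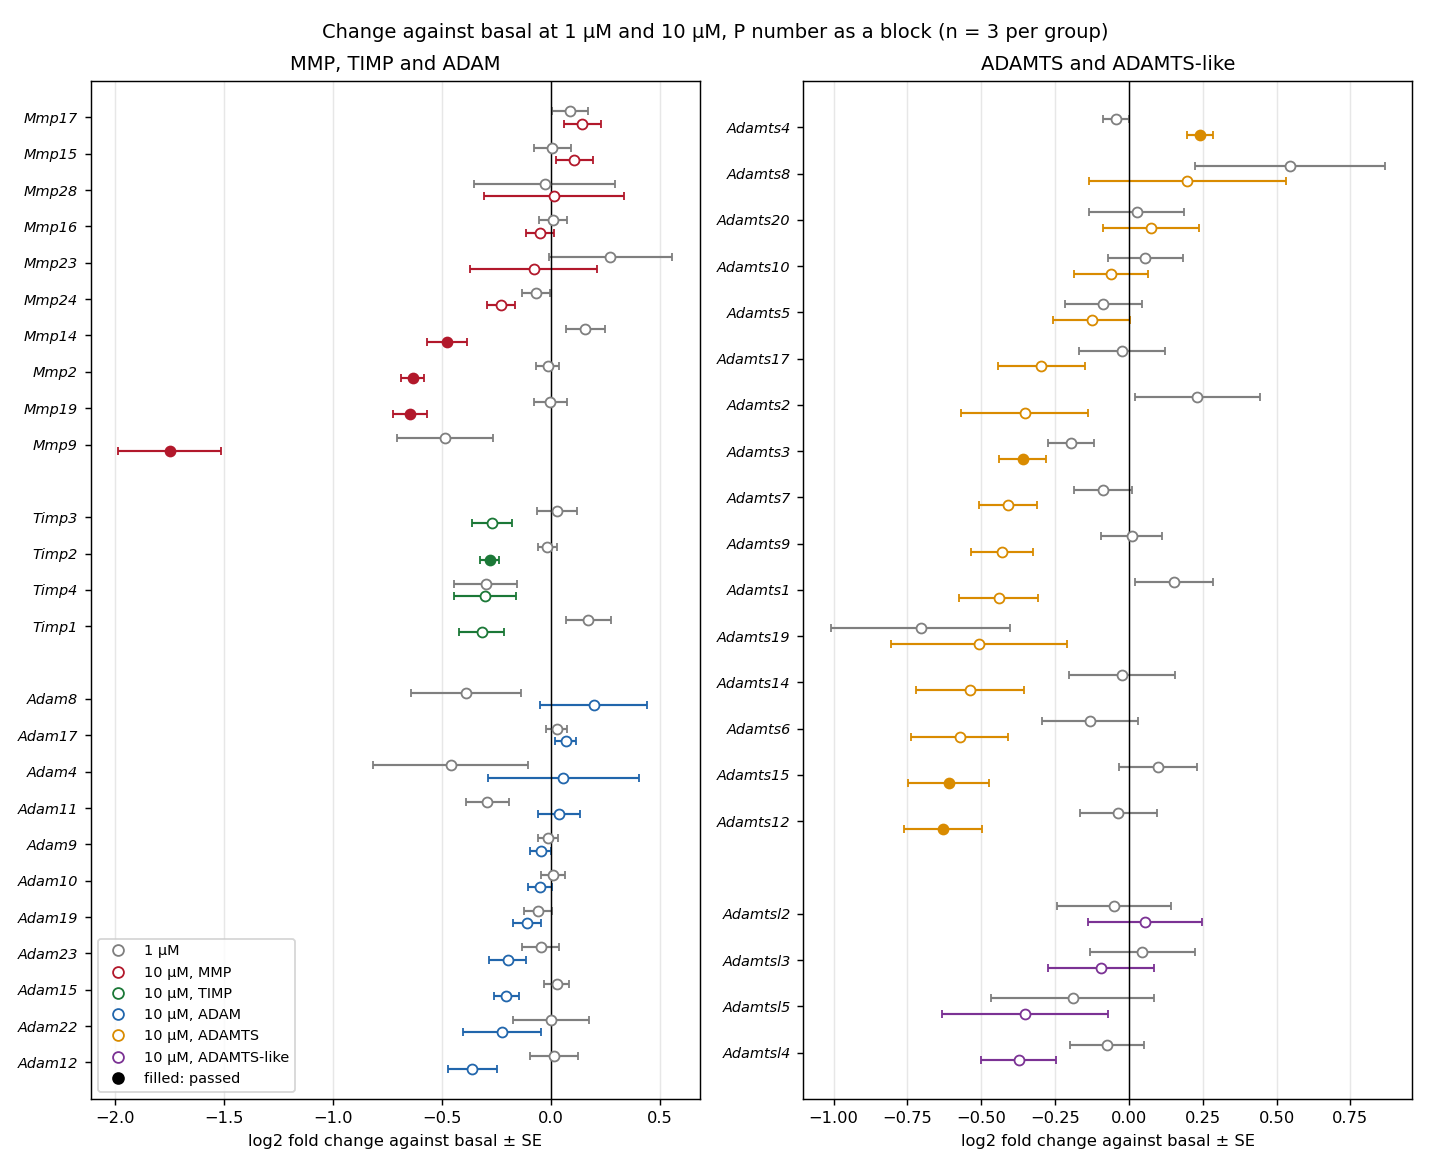
Log2 fold change against basal ± SE (x axis) for each of the 45 tested members with the P number as a block, at 1 µM (grey) and 10 µM (colour, by family), where filled points passed the test. Values at 10 µM lie mostly left of 0, with Mmp9 at −1.75, and no 1 µM point is filled.

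At 1 µM against basal, which asks whether the lower dose acts, 0 of 45 members passed in either fit, against 0% of all genes (edgeR quasi-likelihood). With the block 3 members had an unadjusted p under 0.05, against 582 of all 15321 genes. Without it these counts were 0 members and 81 genes. DESeq2 called 0 members and 8 genes with the block, and 0 members and 5 genes without it. The median log2 fold change of the members was −0.02 (all genes −0.00), and 25 of 45 were negative, against 51.5% of all genes. The members with the smallest unadjusted p were Adam11 (−0.29 ± 0.10), Adamts3 (−0.20 ± 0.08) and Adamts19 (−0.71 ± 0.30), all lower in each P number and each with an adjusted p of 0.9998. Mmp9 had 10.5, 4.63 and 2.17 TPM at 1 µM (−0.49 ± 0.22 against basal), above basal in P13 and below it in P11 and P14. Mmp2 (−0.02 ± 0.05), Mmp19 (−0.00 ± 0.08), Timp2 (−0.02 ± 0.04) and Adamts4 (−0.04 ± 0.04) stood near 0 with small errors.

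The comparison of 10 µM with 1 µM asks whether the doses differ, and it shares the 10 µM libraries with the first comparison. With the block, 10 of 45 members passed, against 4.3% of all genes. Of these 9 fell, against 3% of all genes, and 1 rose, against 1.31%. Without the block 0 members and 0 genes in all passed, with 5 members and 717 genes at an unadjusted p under 0.05. There DESeq2 called 1 member (Timp2, adjusted p = 0.0118) among 66 genes in all, and limma on TPM 0. The median log2 fold change was −0.16 over the members and −0.00 over all genes. With the block and only these 2 groups in the fit, 0 members and 0 genes in all passed. Leaving out 1 library changed the calls of members and of all genes, which were 10 and 659 with all libraries. Both were 0 without 1 µM P11, 1 µM P14 or 10 µM P14. They were 1 and 31 without 1 µM P13, 4 and 182 without 10 µM P13, and 10 and 651 without 10 µM P11. Without any 1 basal library 6 members passed, among 309 to 435 genes. Without all P11 libraries 5 members passed, all lower, among 110 genes.

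Adamts4 had 261, 248 and 284 TPM at 1 µM and was 1.22-fold higher at 10 µM than at 1 µM (0.28 ± 0.04, adjusted p = 0.0211). Mmp2 had 35.4, 19.1 and 13.3 TPM at 1 µM (−0.62 ± 0.05 at 10 µM against 1 µM, adjusted p = 0.0123). Mmp14 had 49.2, 25.8 and 22.1 TPM there (−0.64 ± 0.09, adjusted p = 0.0166). In each P number the 10 µM library was below the 1 µM library for both proteases. Timp2 had 157, 175 and 160 TPM at 1 µM (−0.26 ± 0.04, adjusted p = 0.0228), with no overlap between the 2 doses. Mmp19 had 22.3, 25.9 and 16.6 TPM at 1 µM (−0.64 ± 0.08, adjusted p = 0.0141), also without overlap. The gelatinase Mmp9 was 2.4-fold lower (−1.26 ± 0.23, adjusted p = 0.0292).

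Timp1 and Adamts1 passed against 1 µM but not against basal, and whether those comparisons differ was not tested. Timp1 had 23.8, 32.2 and 15.3 TPM at 1 µM and was 1.41-fold lower at 10 µM (−0.49 ± 0.10, adjusted p = 0.0374). Adamts1, which cuts versican, had 7.17, 1.95 and 1.82 TPM at 10 µM, against 8.79, 4.07 and 2.95 TPM at 1 µM (−0.59 ± 0.13, adjusted p = 0.0462). For both genes the groups overlapped and each P number was lower at 10 µM. Adamts12 (−0.59 ± 0.13, adjusted p = 0.0462) and Adamts15 (−0.71 ± 0.13, adjusted p = 0.0314) fell as well. Leaving out 1 library, the call of Timp1 held in 0 of 9 runs, and those of Adamts1, Adamts12 and Adamts15 in 1 each. In the same runs Mmp2 kept its call in 6, Mmp14, Mmp19 and Adamts4 in 5, and Mmp9 and Timp2 in 4. Among those that did not pass, Adamts9 stood at −0.44 ± 0.10 (adjusted p = 0.0537) and Adam15 at −0.23 ± 0.06 (adjusted p = 0.0654). Adam12 stood at −0.38 ± 0.11 (adjusted p = 0.101) and Adam11 at 0.33 ± 0.10 (adjusted p = 0.104). Adam12, Adam15, Adam11, Adamts2 and Timp3 passed here under DESeq2 with the block.

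The libraries differed by P number more than by dose for many members. Of 45 members 28 differed between P numbers (edgeR quasi-likelihood with dose in the fit), against 51.5% of all genes. For 12 members all 3 P11 libraries were above the other 6 in TPM, against 15.1% of all genes, and for 11 they were all below, against 22.4%. The widest spread was in Adamts2, whose P numbers differed 25.6-fold, with 8.20 to 10.8 TPM in P11, 1.35 to 2.09 TPM in P13 and 0.301 to 0.739 TPM in P14. Adamts12 differed 9.67-fold and Adamts15 7.42-fold, also highest in P11 and lowest in P14.

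Mmp2, Mmp14, Timp3 and Adamts1 were among those highest in P11, 2.64 to 3.84-fold over the lowest P number. The opposite pattern was seen in Mmp15, Mmp16, Mmp17, Mmp24, Timp4 and Adamts3, which were lowest in P11. Adam11 was highest in P14 (193 to 233 TPM) and lower in P11 (92.4 to 109 TPM). In contrast Adam10, Adam15, Adam17, Timp2 and Adamts10 differed by at most 1.07-fold between P numbers. Without the P11 libraries 11 members differed between P13 and P14, against 9.61% of all genes.

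**Figure D5:**
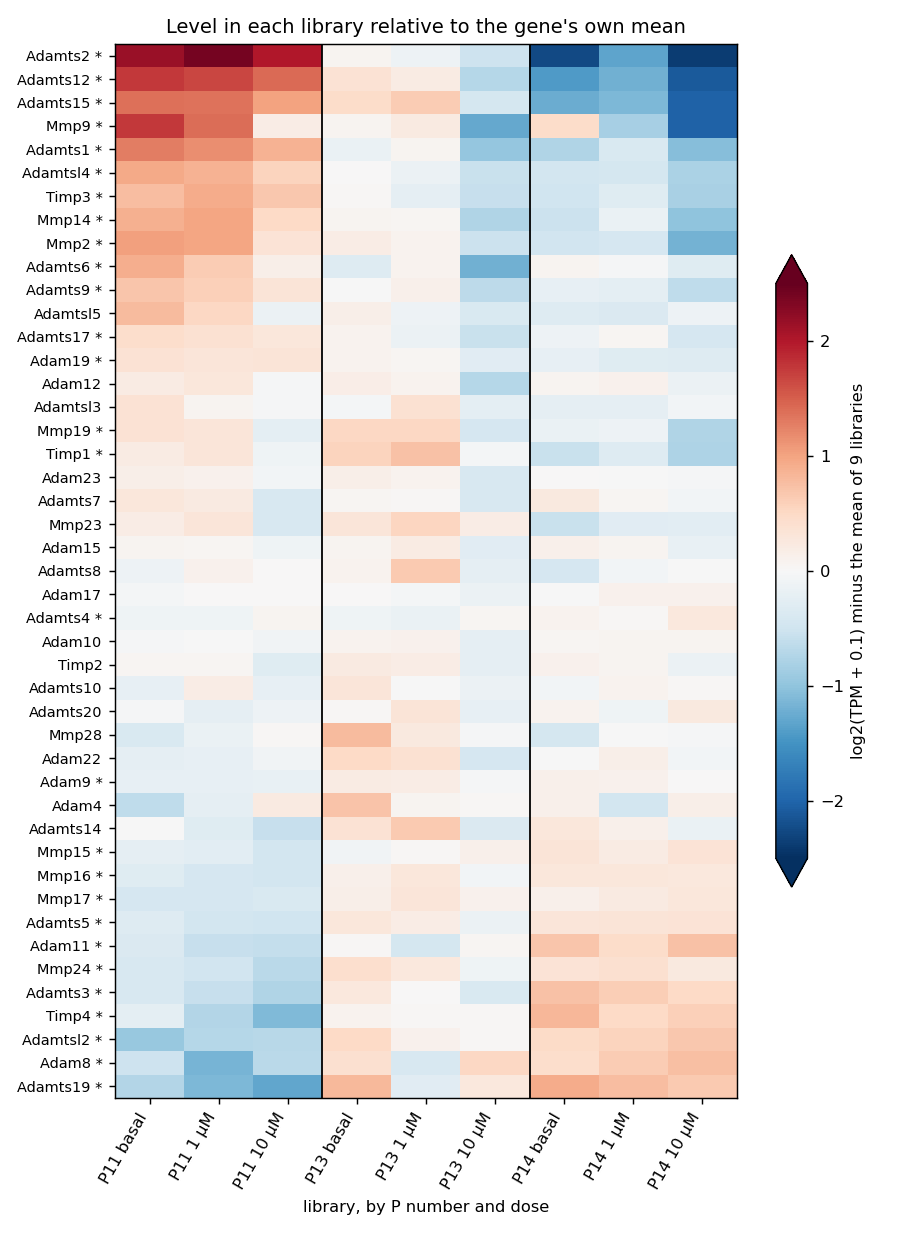
Deviation of log2(TPM + 0.1) from each gene's mean over 9 libraries (colour) for the 45 tested members (rows, sorted by P11), by P number and dose (columns), with a star where the P number passed the test. Most rows at the top are high in all 3 P11 libraries and most at the bottom are low in them, with Mmp9 near its mean in P11 at 10 µM.

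Markers of other cell types moved with the P number and the dose, and their part in the results was not tested. In bulk RNA, fewer cells of a type and less RNA per cell cannot be told apart. The summed level of 18 vascular mural and fibroblast markers, of which Cspg4 and Pdgfra are also OPC markers, was highest in P11 in each group, at 579 to 763 TPM, against 483 to 654 TPM in the other libraries. Within that list Rgs5, Des, Kcnj8 and Abcc9, which mark mural cells, stayed at or under 0.478 TPM. By dose, the sum was 483 to 579 TPM at 10 µM and 496 to 752 TPM in basal libraries, with 1 of 14 tested markers higher and 1 lower. The 13 endothelial markers summed to 13.5 to 27.5 TPM at 10 µM, against 19.4 to 35.7 TPM in basal libraries, with 1 of 8 tested markers lower and Cldn5, Tie1, Tek, Erg, Emcn and Vwf under 1 TPM.

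Astrocyte markers (15) summed to 1559 to 2211 TPM at 10 µM, against 2078 to 2570 TPM in basal libraries, and 4 of 15 fell, where 2.64% of all genes fell and 1.32% rose. Microglia and macrophage markers (18) summed to 1224 to 1528 TPM, against 1273 to 1900 TPM, and 4 of 18 fell. Neuron markers (16) summed to 546 to 674 TPM, against 592 to 866 TPM, and 4 of 14 tested ones fell, with Slc17a6 and Slc17a7 at or under 0.110 TPM. Each of these ranges overlapped, and none of these lists had a riser. In each of the 3 P numbers the sums of the astrocyte, microglia, neuron, mural and endothelial markers were all lower at 10 µM than in the basal library. Mature oligodendrocyte markers (17) summed to 48124 to 54174 TPM at 10 µM, against 36641 to 41758 TPM in basal libraries, without overlap, and 9 of 17 rose. OPC markers (14) summed to 1523 to 1887 TPM, against 1675 to 2015 TPM, and their smallest adjusted p was 0.0676 (edgeR quasi-likelihood with the block).

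Genes that work with these proteases were examined as fixed lists at 10 µM against basal in the blocked fit, where 3.96% of all genes passed and the median log2 fold change was −0.01. Without the block no gene of these lists passed, as no gene did in all. Of 32 basement membrane and collagen substrates, 8 fell and 0 rose, with a median of −0.38. Sparc, a collagen-binding matrix protein, fell (−0.35 ± 0.05, adjusted p = 0.0164), as did the small proteoglycan Bgn (−0.38 ± 0.07, adjusted p = 0.0305) and the laminin chains Lama1 (−0.78 ± 0.15, adjusted p = 0.0315) and Lama5 (−0.66 ± 0.13, adjusted p = 0.0335). Against 1 µM, 14 of these 32 fell.

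Of 14 tested plasminogen system genes 1 fell, the tissue plasminogen activator Plat (−0.36 ± 0.07, adjusted p = 0.0345), with a median of −0.23. Of 15 other metalloprotease inhibitors and inducers 1 fell, the broad protease trap A2m (−0.47 ± 0.08, adjusted p = 0.0250), with a median of −0.11. Of 12 proprotein convertases and astacins, which activate MMPs or process procollagen, the smallest adjusted p was 0.123, with a median of −0.14. The highest in level, the procollagen C-proteinase Bmp1 and the convertase Pcsk6, stood at −0.00 ± 0.06 and −0.01 ± 0.05. Of 18 lecticans, hyaluronan and link protein genes, the substrates of ADAMTS4 among them, 2 fell, the hyaluronan synthase Has3 (−0.75 ± 0.15, adjusted p = 0.0386) and the hyaluronan-degrading Cemip (−0.54 ± 0.12, adjusted p = 0.0464), with a median of −0.23.

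Of 18 partners of ADAM10 and ADAM17, 2 rose and 0 fell (median 0.09). These were Psen2, a gamma-secretase subunit that cuts after the sheddases (0.47 ± 0.05, adjusted p = 0.0114), and Tspan15, a tetraspanin that guides ADAM10 (0.37 ± 0.07, adjusted p = 0.0315). Of 35 tested substrates of ADAM10 and ADAM17, 9 fell and 1 rose, with a median of −0.23. The TNF receptor Tnfrsf1b (−0.68 ± 0.10, adjusted p = 0.0164), Tnf itself (−1.07 ± 0.16, adjusted p = 0.0177), the growth factor Csf1 (−0.32 ± 0.05, adjusted p = 0.0208) and the adhesion protein L1cam (−0.52 ± 0.09, adjusted p = 0.0240) fell. Tnf and Tnfrsf1b are known products of microglia, whose markers are given above.

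Of 12 LGI and ADAM22 family partners, 1 rose and 3 fell, with a median of −0.32. The riser was Lgi3, a secreted ligand of this family (0.40 ± 0.05, adjusted p = 0.0125). The axonal potassium channels Kcna2 (−0.43 ± 0.07, adjusted p = 0.0261) and Kcna1 (−0.46 ± 0.09, adjusted p = 0.0356) and the scaffold Dlg2 (−0.76 ± 0.15, adjusted p = 0.0343) fell. Adam11, Adam22 and Adam23, whose proteins bind LGI proteins, did not pass.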

How the data were processed

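Of the 2 tables the authors deposited, one holds estimated counts (expected counts) of each gene without scaling between libraries, and the other TPM, which is scaled by gene length. The submitters' processing notes list build rn6 and the tools DRAGEN, FastQC, Picard and Trimmomatic. Which counter, strand setting and annotation release were used is not given in the sources used here, and without them reads of overlapping genes cannot be assigned with certainty. The values of 1 overlapping gene are not reported here. Per the labels' protocols RNA was extracted with RNeasy columns and libraries were stranded mRNA preparations. For the lower dose 1 protocol reads 1 mM and the design text 1 µM, which was taken here.

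Estimated counts were rounded and tested in R 4.3.3 with edgeR 4.0.16 (quasi-likelihood F test, TMM factors, filterByExpr with a count minimum of 10 and a total minimum of 15) on all 9 libraries, with 1 coefficient per group. P-values were adjusted by Benjamini-Hochberg over all 15321 genes tested, and adjusted p under 0.05 was called. SE is the size of the log2 fold change over the square root of F. Limits for genes without reads (3 reads) cover counting error only. The depths of 23.9 to 43.1 M reads (M, 1000000) limit members with few reads most.

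Libraries with the same P number were taken as paired because every such pair had a correlation of deviations from group means over 0.1 (9 pairs, 0.319 to 0.772). Values of members therefore come from the fit that adds the P number as a block, given beside the fit without it. Libraries of 1 group always differed by more than sampling noise (chi-square over degrees of freedom 23.8 to 117).

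The members, lists and tests were chosen with earlier results of these data known. Members were named if called in any dose comparison, if among the 3 highest of their class, if in a fixed core, or if among the 4 smallest p-values that did not pass. List genes were named if among up to 4 called with the smallest p. Adamtsl1 of the core is not analysed here. DESeq2 1.42.0, limma 3.58.1 on log2(TPM + 1) and log2(TPM + 0.1), other scalings and filters, the groups compared alone and the leaving out of libraries were tried. The steps were tested on simulated counts. Motifs were searched in RefSeq GRCr8 promoters, while the tables use rn6, so only symbols were joined. Protein sequences were not used here.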

Additional observations from a re-analysis of the deposited data

How the results depend on the processing

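With P number as replicate block, 9 members were called at 10 µM against basal and 10 at 10 µM against 1 µM, where 0 were called without it, and DESeq2 without the block called 1 in each. In the blocked fit, both counts were 0 when only the 2 groups compared were fitted, as were those over all genes. Leaving out 1 library gave 0 to 8 at 10 µM against basal and 0 to 10 against 1 µM, and leaving out all P11 libraries gave 0 and 5. Over all genes the same runs called 0 to 581 and 0 to 651, and without all P11 libraries 10 and 110. In that last setting the P number called 11 members, where 28 were called with all libraries. The cause of these moves was not tested, though each such fit has fewer libraries. Scaling by library totals gave 12 members in both comparisons and made 84.3% and 87.4% of all blocked calls lower, where 66.7% and 69.7% were lower with TMM, and it moved the median log2 fold change of all genes by −0.05 and −0.06. DESeq2 with the block gave 11 and 15 members, among 964 and 987 genes in all. With the block limma on TPM gave 6 and 7 members, among 433 to 506 genes. At 1 µM against basal 0 members were called under every alternative run. No called member changed direction under any blocked alternative. Leaving out all P11 libraries in the fit without the block, an alternative chosen after seeing the data, gave 0 calls in each dose comparison. At these depths members under about 10 reads per library could not be tested.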
